A study of Mus musculus with 23 samples.

Results

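Kupffer cells are the resident macrophages of the liver, and blood monocytes can refill their niche after they are lost. The regions described here were open in Kupffer cells and already open in the repopulating liver macrophages collected 24 h after diphtheria toxin. In blood Ly6C-high monocytes they had no called peak, which does not show that they were closed. They are called early Kupffer regions below. Open chromatin was read from ATAC-seq, an assay that tags DNA where a transposase can reach it. The regions were chosen by peak calls: peaks of 23 libraries that overlapped by at least 1 bp were merged on the 19 autosomes and X, and a region was kept where both Kupffer libraries and all 3 of the 24 h libraries had a peak and neither blood library had one. Of 155137 merged regions, 1727 met this rule, which is 13.7% of the 12645 regions with a peak in both Kupffer libraries and in neither blood library. Values in those 7 libraries are therefore given as a description, with no test.

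The repopulating macrophages and the Kupffer cells came from Clec4f-cre/Rosa26iDTR mice, in which the promoter of Clec4f, a lectin gene of Kupffer cells, drives the Cre that switches on the diphtheria toxin receptor. Toxin-treated mice gave 3 libraries at 24 h and 2 at 48 h, and PBS-treated mice gave the 2 Kupffer libraries. The 2 blood libraries came from untreated C57BL/6J mice. In the Nr1h3 experiment, Nr1h3 flox/flox mice gave 2 libraries of TIM4+ control Kupffer cells, and Nr1h3 flox/flox Clec4f-cre +/- mice gave 2 libraries of TIM4+ and 2 of TIM4- knockout cells. The sample titles give a Clec-negative gate for these controls and a Clec-positive gate for both knockout groups, so genotype and gate cannot be told apart. In the Smad4 experiment the titles and the strain labels give opposite genotypes: the 2 mice titled knockout have the strain label Smad4 flox/flox, and the 2 titled control carry Clec4f-cre +/- as well. The titles were followed, and every direction below holds for the libraries titled knockout against those titled control. Untreated C57BL/6J bone marrow macrophages, cultured for 4 days, gave 2 libraries, and cultures given the Notch ligand DLL4 for 24 h gave 2 more. No source says that the libraries of a group share litters or days. The p-values rest on groups of 2 libraries, with a variance drawn in part from all tested regions of like signal. A p-value therefore does not measure the spread between the libraries at that region alone. Peak lists cannot show whether Nr1h3 or Smad4 was lost.

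Nr1h3 encodes LXR alpha, a nuclear receptor that is bound by oxysterols and acts on genes of cholesterol export. Smad4 carries signals of the TGF-beta and BMP receptors to the nucleus, and DLL4 activates Notch receptors, whose cleaved domain binds DNA through RBPJ. In liver macrophages these pathways act on top of lineage factors such as PU.1, which opens macrophage enhancers, and regions that open in sequence during differentiation are used to follow when each layer takes effect.

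The libraries held 10.43 to 18.36 M tags, of which 15.41 to 54.74% lay in 48775 to 104206 peaks. Signal below is the authors' normalised tag count of the strongest peak in a region, in tags per 10 M of the library, and a region with no called peak has no value. Cell identity was checked as the number of marker genes with a peak within 1 kb of either gene end. Of 10 Kupffer cell markers, the 24 h libraries had such peaks at 1, 2 and 1, the 48 h libraries at 3 and 4, and the Kupffer libraries at 8 and 9. Clec4f, Timd4, Vsig4 and Marco had none at 24 h or at 48 h. Of 23 monocyte markers, 15, 16 and 17 had one at 24 h, 17 and 17 at 48 h, and 12 and 12 in Kupffer cells. The early Kupffer regions were thus open in cells whose Kupffer marker genes mostly had no end peak. In sorted bulk samples, fewer cells with an open region and less opening per cell cannot be told apart.

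Promoters were a small part of the early Kupffer regions. RefSeq promoter windows (GRCm38.p6, 250 bases before to 50 bases after a gene start) could be compared with 1669 of them, and 83 (4.97%) overlapped one, against 8.61% of all merged regions, 2.44% of the Kupffer regions first open at 48 h and 2.83% of those still closed at 48 h. The differences between these sets were not tested. As examples of the few early regions at gene starts, the 6 overlapping regions with the highest Kupffer signal are shown as their RefSeq promoter sequences. That of Maff, a small MAF protein that binds DNA with other factors, was added after its values were seen. Capitals mark matches, on either strand, to AGGAAGT (PU.1), AGGTCA (an LXR core site), TGANTCA (AP-1), TGGGAA (RBPJ), CAGACA (SMAD) and TGTGGT (RUNX).
Ctla2b: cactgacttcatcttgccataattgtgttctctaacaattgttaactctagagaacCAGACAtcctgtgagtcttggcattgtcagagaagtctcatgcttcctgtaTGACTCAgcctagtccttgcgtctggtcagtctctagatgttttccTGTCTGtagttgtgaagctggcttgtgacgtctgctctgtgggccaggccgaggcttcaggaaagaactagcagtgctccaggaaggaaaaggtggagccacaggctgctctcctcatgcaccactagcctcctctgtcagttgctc
1700003F12Rik: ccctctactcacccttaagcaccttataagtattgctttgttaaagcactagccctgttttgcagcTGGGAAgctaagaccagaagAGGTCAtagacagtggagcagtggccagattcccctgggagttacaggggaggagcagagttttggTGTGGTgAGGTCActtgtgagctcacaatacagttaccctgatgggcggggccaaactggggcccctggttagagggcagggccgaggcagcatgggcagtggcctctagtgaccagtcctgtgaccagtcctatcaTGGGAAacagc
Gm39430: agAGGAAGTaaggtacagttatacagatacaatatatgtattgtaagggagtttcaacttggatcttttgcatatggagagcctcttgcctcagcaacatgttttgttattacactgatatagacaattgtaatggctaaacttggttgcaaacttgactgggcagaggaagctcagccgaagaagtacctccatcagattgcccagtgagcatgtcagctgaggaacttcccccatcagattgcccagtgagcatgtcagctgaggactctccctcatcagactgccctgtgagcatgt
Gm31613: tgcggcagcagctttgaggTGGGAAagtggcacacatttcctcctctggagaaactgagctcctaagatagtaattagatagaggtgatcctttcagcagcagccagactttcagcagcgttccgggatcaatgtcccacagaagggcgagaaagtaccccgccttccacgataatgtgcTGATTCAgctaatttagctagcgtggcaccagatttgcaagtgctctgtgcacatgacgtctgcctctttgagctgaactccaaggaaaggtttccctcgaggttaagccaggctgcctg
Gm30926: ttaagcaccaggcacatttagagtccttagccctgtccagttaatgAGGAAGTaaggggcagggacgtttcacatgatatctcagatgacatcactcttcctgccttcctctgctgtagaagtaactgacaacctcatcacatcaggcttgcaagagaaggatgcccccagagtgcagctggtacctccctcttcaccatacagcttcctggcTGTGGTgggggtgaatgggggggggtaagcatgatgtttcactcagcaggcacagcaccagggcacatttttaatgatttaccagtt
Fam13a: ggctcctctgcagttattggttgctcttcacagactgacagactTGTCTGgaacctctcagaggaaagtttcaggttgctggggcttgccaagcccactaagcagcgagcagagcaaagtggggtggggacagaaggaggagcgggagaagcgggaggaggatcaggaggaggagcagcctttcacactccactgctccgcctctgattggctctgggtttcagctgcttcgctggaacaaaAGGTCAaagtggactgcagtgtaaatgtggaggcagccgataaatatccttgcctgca
Maff: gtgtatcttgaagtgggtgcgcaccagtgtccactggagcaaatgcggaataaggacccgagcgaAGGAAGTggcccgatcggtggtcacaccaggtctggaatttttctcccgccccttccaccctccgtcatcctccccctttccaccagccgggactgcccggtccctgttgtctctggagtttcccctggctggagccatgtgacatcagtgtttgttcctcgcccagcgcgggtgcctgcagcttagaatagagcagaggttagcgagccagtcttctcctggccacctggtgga

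The windows, which are 300 bases each, lie for Ctla2b at chr13:60897398-60897697 (minus strand), for 1700003F12Rik at chr2:154548654-154548953 (plus strand), for Gm39430 at chr9:111977952-111978251 (minus strand), for Gm31613 at chr16:78236743-78237042 (plus strand), for Gm30926 at chr14:22801315-22801614 (minus strand), for Fam13a at chr6:59024453-59024752 (minus strand) and for Maff at chr15:79348152-79348451 (plus strand). The transcripts Gm39430, Gm31613 and Gm30926 are predicted genes, and the nearest protein-coding genes of their regions are Arpp21, Cxadr and Lrmda. In the printed windows, PU.1 letters were found at Gm39430, Gm30926 and Maff, LXR core letters at 1700003F12Rik and Fam13a, SMAD letters at Ctla2b and Fam13a, and RBPJ letters at 1700003F12Rik and Gm31613. Over the 92 windows touched by an early region, AGGAAGT was in 15.2% against 9.38% of all 32585 windows, AGGTCA in 25.0% against 16.2%, and CAGACA in 14.1% against 20.8%. TGGGAA was in 27.2% against 25.4%, TGANTCA in 8.7% against 7.85%, and TGTGGT in 16.3% against 16.6%. Of the motifs not marked above, TGCTGAC (a MAF core site) was in 4.35% against 4.7%, CACGTG (E-box) in 8.7% against 7.2%, TTGCNNAA (C/EBP) in 6.52% against 10.9% and GAAA repeated after any 2 bases (IRF) in 1.09% against 3.45%. These shares are descriptions of letters in a window, without a test, and a match is not a bound site.

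In the 6 promoter regions ranked by Kupffer signal, both Kupffer values were above all 24 h values, an order that this ranking favours. At the start of 1700003F12Rik the 24 h libraries had 30.0, 35.4 and 21.8, the 48 h libraries 117.7 and 101.9, and the Kupffer libraries 179.1 and 229.1. At Fam13a the 24 h values were 12.2, 15.4 and 19.9, the 48 h values 20.9 and 30.1, and the Kupffer values 149.8 and 134.2. At Gm39430 they were 16.9, 25.4 and 17.1 at 24 h, 39.2 and 57.2 at 48 h, and 179.1 and 171.6 in Kupffer cells. In all 3 the groups did not overlap and the order was 24 h, 48 h, Kupffer. Maff differed: its 24 h values of 76.8, 73.5 and 82.5 overlapped the Kupffer values of 52.1 and 88.2, and both 48 h values (95.0 and 123.2) were above them. A blood peak lay 15 bp from the Maff region and 58938 bp from that of Gm39430.

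The early regions had a median width of 310.0 bp, against 261.0 bp for all merged regions, whose longest was 1437 bp. Of them 977 (56.6%) lay inside a protein-coding gene, against 60.1% of all regions, and 1489 (86.2%) lay within 50 kb of one, against 88.7%. The 1489 regions fell to 1255 genes, of which 1078 had 1 region, 137 had 2 and 40 had 3 or more. Itga9, the alpha 9 integrin subunit, had the most, with 10 regions over 269 kb. Ttll5, a tubulin polyglutamylase, had 5. Nav2, Stard13, Zeb2, Xdh, Hpgds, Igf1, Pdlim5 and Usp6nl had 4 each. These genes also hold many regions of any kind (72 at Itga9 and 105 at Nav2). Of the regions at each gene with a peak called in Kupffer cells and none in blood, 10 of 21 were early at Itga9, 5 of 10 at Ttll5 and 4 of 20 at Nav2.

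Many early regions lay close to a blood peak without overlapping one. For 519 of them (30.1%) a blood peak lay within 1 kb, and the median distance was 3157 bp, against 6727 bp for regions first open at 48 h and 19963 bp for those still closed at 48 h. The rule is a threshold on calls. The weakest of the 5 required signals was 5.45 at the lowest, 14.2 at the median and 317.0 at the highest, and in 296 regions (17.1%) it was under 10. Just outside the rule, 1677 regions had a peak in only 2 of the 3 libraries at 24 h, with a median weakest 24 h signal of 12.3 against 15.2 in the early regions. A further 1853 had a peak in 1 library at 24 h and 7388 in none. On the blood side, 1941 regions met the Kupffer and 24 h calls but had a peak in 1 of the 2 blood libraries, with a median blood signal of 15.5 (4.88 to 670.0). The last of the 24 h libraries (replicate 3) had the lowest median signal over the early regions (17.1, against 24.3 and 22.7). Without it the rule would select 2948 regions, and without the second blood library 3016.

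Almost all early regions were still open at 48 h. Both 48 h libraries had a peak in 1649 (95.5%), 1 of the 2 had one in 71 and neither in 7, where 43.0% of all merged regions were called in both. Libraries the rule did not use called most of the regions in every other group too. Both Nr1h3 control libraries called 1507 (87.3%, background 33.9%), both TIM4+ knockout libraries 1339 (77.5%, background 27.9%) and both TIM4- knockout libraries 1541 (89.2%, background 38.3%). The titled Smad4 controls called 1447 (83.8%, background 34.2%) and the titled knockouts 1289 (74.6%, background 28.2%). Among all regions called in both Kupffer libraries the same shares were 85.0, 83.8, 71.3, 84.7, 83.0 and 70.9% in that order of groups, so the calls in the knockouts lie close to those of Kupffer regions in general. The share of tags in peaks was 41.95 and 44.48% at 48 h, 33.35 and 25.98% in the Nr1h3 controls, 21.92 and 26.58% in the TIM4+ knockouts and 43.8 and 41.27% in the TIM4- knockouts. It was 19.53 and 25.23% in the titled Smad4 controls and 15.41 and 19.6% in the titled knockouts. The titled Smad4 controls called more early regions than the TIM4+ knockouts, with overlapping shares of tags in peaks. These 2 groups come from different experiments and strains, so setting them side by side does not separate that share from other differences. The part of this share in the calls was not tested.

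Cultured bone marrow macrophages, which never saw the liver, also had peaks in most early regions. Both untreated cultures called 1297 (75.1%, background 51.4%) and both DLL4 cultures 1372 (79.4%, background 53.3%). Both shares lay below those among all regions called in both Kupffer libraries (81.1 and 83.3%), a difference that was not tested. All 4 culture libraries called 1241 (71.9%), against 43.1% of the regions first open at 48 h and 13.8% of those still closed at 48 h. None of the 4 called 174 (10.1%), against 27.3% and 66.5%. Of those 174, 84 were called in all 12 of the other liver libraries. Skil, whose product SnoN restrains SMAD proteins, had one of them in its gene body at chr3:31095640-31095939. Its signal was 148.8, 200.7 and 122.3 at 24 h, 228.3 and 281.6 at 48 h and 162.1 and 179.3 in Kupffer cells. In the Nr1h3 controls it was 280.5 and 193.4 and in the titled Smad4 controls 124.2 and 133.4, with no peak in culture. Further examples, chosen after their values were seen, lay in Rab20 (an endosomal Rab GTPase) with Kupffer values of 107.1 and 135.2, in Lonrf1 with 131.8 and 138.0, and 3154 bp from Ets2 (an ETS factor) with 115.6 and 146.7. Over all 16 libraries outside the rule, 855 regions (49.5%) were called in every one, and none was called in no other library.

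**Figure D1:**
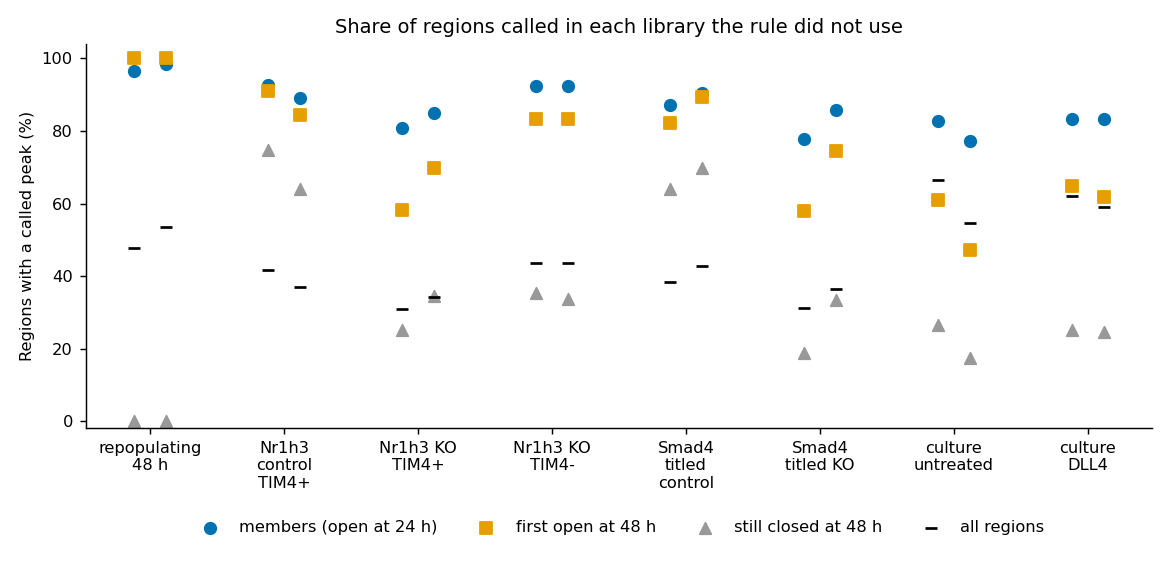
Share of regions with a called peak (percent, vertical axis) in each library outside the rule, 2 libraries per group, for the early Kupffer regions, for Kupffer regions first open at 48 h, for those still closed at 48 h and for all merged regions. Early regions lie between 77.2 and 98.4% in every library, and in the 4 culture libraries they lie above both later sets.

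Most early regions had more signal at 48 h than at 24 h. Over the 1649 regions called in all 7 libraries of the 24 h, 48 h and Kupffer groups, both 48 h values were above all 3 of the 24 h values in 949 (57.6%), where 26.5% of the 38372 regions called in all of these libraries were. The reverse held in 17 (1.03%, background 11.2%). The rule asks for a Kupffer peak and no blood peak, and it chose regions with low 24 h signal. Their 24 h library medians were 17.1 to 24.3, against 43.6 to 46.8 over all regions called in both Kupffer libraries. A rise after 24 h is thus favoured by the rule, and its difference from the background was not tested. From 48 h to Kupffer cells no single direction held: both Kupffer values were above both 48 h values in 390 (23.7%, background 13.1%) and below them in 635 (38.5%, background 55.6%). With each library divided by its own median these counts became 685 and 353, so the order of these 2 groups depends on the scaling. A rise in both steps without overlap was seen in 196 regions (11.9%, background 3.6%) and a peak at 48 h above both other groups in 431 (26.1%, background 15.4%), which became 316 and 199 with the library medians divided out. Leaving out a library of 2 or 3 loosens these counts. The 390 became 596 without the first Kupffer library and 585 without the second 48 h library, and the 431 became 726 without the first 48 h library. Without the first or second 48 h library the 196 became 295 and 312, and without the first Kupffer library 321. The 17 became 31, 32 and 77 without replicates 1, 2 or 3 at 24 h, and 56 and 100 without the first or second at 48 h.

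The strongest early regions were ranked by the lowest of their 5 required signals, so a high 24 h signal is part of how they were picked. The strongest of all lay in Hspa8, a constitutive heat shock chaperone, at chr9:40800998-40801473, 39 bp from a blood peak. It had 534.5, 482.1 and 460.0 at 24 h, 476.7 and 482.6 at 48 h, and 316.6 and 418.0 in Kupffer cells. All 3 of the 24 h values were above both Kupffer values. One TIM4+ knockout library had no called peak there and the other had 323.5, although both TIM4- knockouts were at 544.4 and 443.9. Junb, an AP-1 subunit, had one 78 bp from its gene with 184.4, 210.7 and 264.6 at 24 h, 276.3 and 284.6 at 48 h and 89.1 and 158.2 in Kupffer cells. Neither Nr1h3 control nor any of the 4 Smad4 libraries had a called peak at the Junb region, and both TIM4+ knockouts had 188.3 and 201.3. A missing call is not a zero, and both PBS Kupffer libraries had a peak there. Of early regions called in both TIM4+ knockouts, 0.672% had no peak in either control, against 1.81% of all such regions. Other regions of this group lay at Zfand5, Itprid2, Nr1d2 (the nuclear receptor REV-ERB beta), Tmem123 and Skil, 110528 bp from Ets2 and 127275 bp from Rasgef1b.

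The ratio of mean Kupffer to mean 24 h signal had a median of 1.37 over the early regions, with quartiles of 0.934 and 2.14, and ran from 0.199 to 24.6. It was over 4 in 99 regions and under 0.5 in 49. The highest ratio lay in Arl15, a small GTPase of the ARF-like family, at chr13:113949734-113950055, with 13.1, 10.9 and 14.2 at 24 h, 83.7 and 86.5 at 48 h and 310.0 and 315.4 in Kupffer cells. Dlc1 had a region at chr8:36613793-36614185 with 20.6, 13.6 and 15.2 at 24 h, 15.7 and 15.4 at 48 h and 217.1 and 184.1 in Kupffer cells. By 48 h the Arl15 region was far above its 24 h values and the Dlc1 region was within them. The lowest ratio lay in Cndp2, a cytosolic dipeptidase, at chr18:84671677-84672133, with 93.6, 77.2 and 16.1 at 24 h, 66.2 and 74.8 at 48 h and 10.4 and 14.4 in Kupffer cells. In the Cndp2 region replicate 3 at 24 h lay close to the Kupffer values and the other two 24 h libraries far above. Itpkb, an inositol trisphosphate kinase, had 104.8, 103.5 and 81.6 at 24 h and 14.2 and 24.9 in Kupffer cells at chr1:180423180-180423577, with no overlap. A region 26037 bp from Pparg, a lipid-sensing nuclear receptor, had 41.2, 30.9 and 16.1 at 24 h and 10.4 and 9.59 in Kupffer cells. The early regions therefore span from nearly mature signal to a small fraction of it, and some had their highest signal before the Kupffer state.

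**Figure D2:**
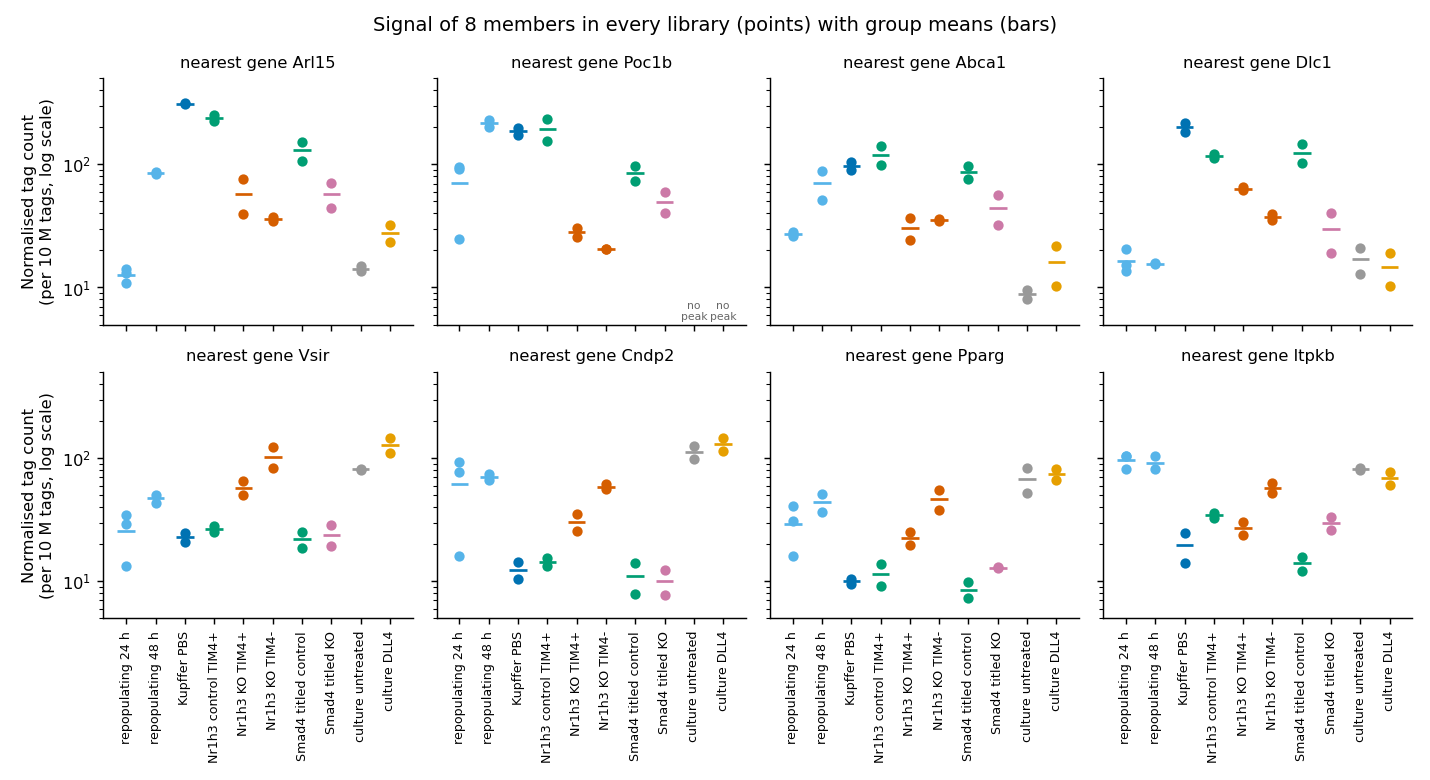
Normalised tag count per 10 M tags (log axis) of 8 early regions in every library outside blood, with points for libraries and bars for group means; "no peak" marks a group in which no library had a called peak. Arl15, Poc1b, Abca1 and Dlc1 lie higher in Kupffer cells and controls than in the Nr1h3 knockouts, and Vsir, Cndp2 and Pparg lie lower in Kupffer cells than at 48 h.

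In Nr1h3 knockout TIM4+ cells, early regions moved in both directions. Of 1293 regions called in all 4 libraries, 81 (6.26%) were higher and 77 (5.96%) lower than in TIM4+ controls, at a Benjamini-Hochberg adjusted p under 0.05 in limma over all regions, where 4.86% of all 40231 tested regions were higher and 3.91% lower. The median log2 difference was 0.04, against 0.08 over all regions. Fold changes are on the log2(signal + 1) scale, each library centred on its median. Without centring, which shifts the median of all regions by -0.23, 2 were higher and 68 lower. Removing one control library gave 41 or 30 higher and 39 or 31 lower, and removing the first knockout library gave 50 higher. Among regions first open at 48 h, 27 of 916 were higher and 149 lower, and among those still closed at 48 h 14 of 769 and 152. The differences between these sets were not tested. The knockouts had 21.92 and 26.58% of tags in peaks and the controls 33.35 and 25.98%. Monocyte markers with an end peak numbered 8 and 10 of 23 in the knockouts and 12 and 11 in the controls, and Kupffer markers 8 and 9 of 10 against 9 and 9. The part of these values in the result was not tested.

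The regions with the largest losses had high Kupffer signal. Poc1b, a centriolar protein gene, held one at chr10:99179620-99179961, with 236.0 and 155.1 in controls and 25.5 and 30.7 in TIM4+ knockouts (log2 difference -2.42, SE 0.18, adjusted p 1.6e-37 in limma). Its groups did not overlap, and it had 95.5, 92.6 and 24.7 at 24 h and no peak in culture. Abhd12, a lysophospholipid lipase gene, held chr2:150851259-150851657, with 118.0 and 100.3 in controls and 19.1 and 24.6 in knockouts (-1.97, SE 0.21, adjusted p 6.8e-18). The Arl15 region had 251.0 and 224.5 in controls and 39.6 and 76.4 in knockouts (-1.78, SE 0.16, adjusted p 2.1e-26). A region 20237 bp from Ptgs1, which encodes cyclooxygenase 1, had 126.1 and 104.3 in controls and 22.3 and 33.4 in knockouts (-1.72, SE 0.20, adjusted p 2.5e-15). Stard13 had 100.1 and 85.8 against 22.3 and 21.8 at chr5:151056890-151057392 (-1.72, SE 0.22, adjusted p 1e-12). In none of these 5 did a knockout library reach a control library, and none of the 5 calls was lost under any alternative run. In titled Smad4 knockouts the Ptgs1 region was lower too (-0.85, adjusted p 0.0065 in limma). That Smad4 call was lost without titled knockout replicate 1 (-0.57) or titled control replicate 1 (-0.78) or 2 (-0.97). The Abhd12 region did not pass there (-0.27, adjusted p 0.55).

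Gains were smaller. R3hcc1l held chr19:42563870-42564317, with 24.9 and 19.1 in controls and 46.6 and 63.5 in TIM4+ knockouts (log2 difference 1.59, SE 0.24, adjusted p 1.4e-08). Vsir, which encodes the immune checkpoint VISTA, held chr10:60362136-60362632, with 28.3 and 25.1 against 65.1 and 50.5 (1.38, SE 0.23, adjusted p 2.9e-07). Both were above control in each knockout library, and both held under every alternative run. The Cndp2 region had 15.6 and 13.2 in controls and 25.5 and 35.5 in knockouts (1.33, SE 0.29, adjusted p 0.0003). Tanc2, a synaptic scaffold gene, had 12.7 and 11.2 against 21.1 and 31.4 (1.36, SE 0.30, adjusted p 0.00042), and Nt5c2, a purine nucleotidase gene, 12.1 and 10.6 against 19.1 and 30.0 (1.32, SE 0.31, adjusted p 0.00079). Those 3 calls were lost without centring, where their adjusted p-values were 0.1, 0.086 and 0.1. Cndp2, Tanc2 and Nt5c2 had lower signal in Kupffer cells than at 48 h in every library.

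**Figure D3:**
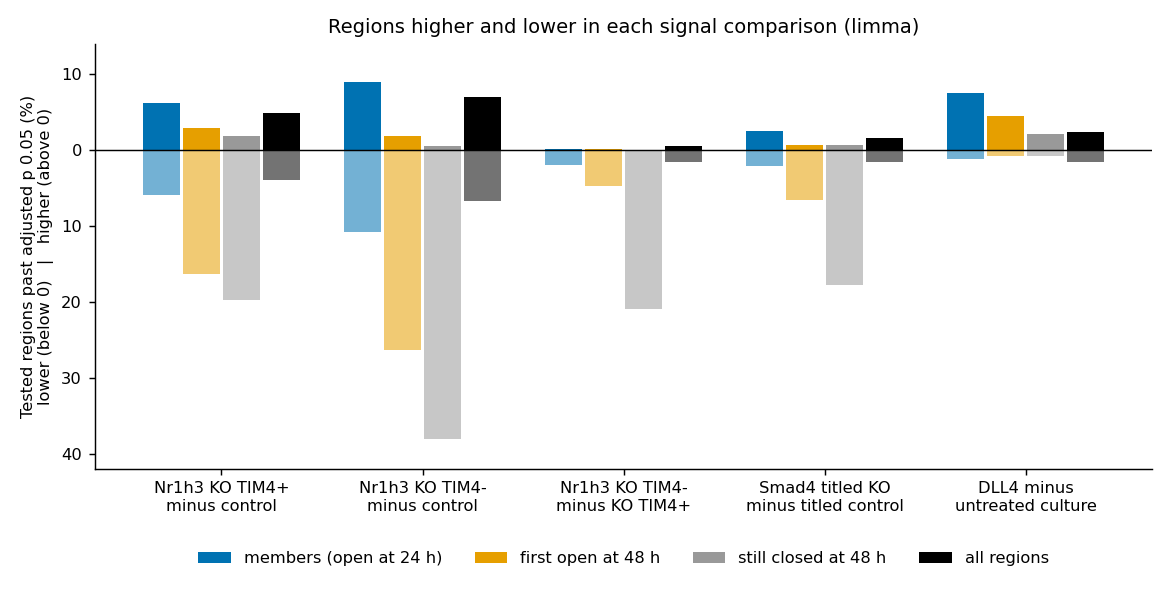
Percent of tested regions that were higher (above 0) or lower (below 0) at an adjusted p under 0.05 in 5 signal comparisons by limma, for early regions, regions first open at 48 h, regions still closed at 48 h and all regions. Early regions show 6.26% higher and 5.96% lower in TIM4+ knockouts, while the 2 later sets have longer bars below 0 in the first 4 comparisons.

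TIM4- knockout cells were compared with the same TIM4+ control libraries, so the 2 Nr1h3 comparisons share their controls. Of 1438 early regions, 129 (8.97%) were higher and 155 (10.8%) lower in limma, where 7.03% of all 46888 tested regions were higher and 6.68% lower. The median log2 difference was 0.02, against 0.08 over all regions. Without centring, which shifts the median of all regions by 0.48, 391 were higher and 59 lower, so the balance of the directions rests on the centring. Without the second control library 67 were higher and 93 lower, and without the second knockout library 69 were higher and 119 lower. The TIM4- libraries had 43.8 and 41.27% of tags in peaks against 33.35 and 25.98% in the controls, and its part was not tested. Kupffer marker end peaks numbered 8 and 8 of 10, with Timd4, the gene of the sort marker TIM4, lacking one in both. Dendritic cell markers with an end peak numbered 7 and 7 of 12, against 4 and 5 in the controls. Flt3 and Ccr7 had one in both TIM4- libraries and in neither control, while Zbtb46, Itgae, Siglech, Cd209a and Ccr9 had none in either group. Flt3 also had one in the first PBS Kupffer library and in all 24 h and 48 h libraries. Monocyte markers numbered 12 and 13 of 23, against 12 and 11. The part of these markers in the result was not tested.

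Poc1b fell furthest here as well, from 236.0 and 155.1 to 20.6 and 20.7 (log2 difference -3.55, SE 0.19, adjusted p 3.1e-53 in limma). Supt3, a transcription cofactor gene, held chr17:45033601-45033888, with 71.7 and 64.0 in controls and 8.84 and 8.72 in TIM4- knockouts (-3.22, SE 0.28, adjusted p 3.5e-24). Its signal at 24 h was 16.9, 17.3 and 12.3, so the TIM4- values lay below those of every repopulating library. Arl15 had 37.7 and 34.9 (-3.08, SE 0.17, adjusted p 6.4e-52), Stard13 17.1 and 16.3 (-2.81, SE 0.23, adjusted p 3e-26) and Abhd12 25.9 and 20.7 (-2.59, SE 0.21, adjusted p 4.7e-27). Abca1, the cholesterol exporter and a classical LXR target, held 2 of the named early regions. At chr4:53081960-53082222 the controls had 140.5 and 99.0, TIM4+ knockouts 24.3 and 36.9 (-1.64, SE 0.19, adjusted p 1.9e-14) and TIM4- knockouts 35.9 and 34.9 (-2.11, SE 0.19, adjusted p 1.6e-22). At chr4:53126777-53127130 the controls had 194.3 and 157.8, TIM4+ knockouts 167.9 and 174.7 (0.27, SE 0.14, adjusted p 0.23) and TIM4- knockouts 306.9 and 271.3 (0.32, SE 0.14, adjusted p 0.13). The first Abca1 region fell in both knockout groups, and the second passed the test in neither. In titled Smad4 knockouts the first was lower as well (-0.65, SE 0.18, adjusted p 0.025 in limma). That call was lost without centring (adjusted p 0.11) or with quantile normalisation (adjusted p 0.051). It was also lost without titled knockout replicate 1 (-0.43) or titled control replicate 1 (-0.68) or 2 (-0.65). The second did not pass there (0.20, adjusted p 0.58).

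Higher in TIM4- knockouts were regions at Susd1, Cndp2, Pparg, Vsir and Iscu. The region in Susd1 had 30.1 and 12.5 in controls and 83.7 and 75.7 in TIM4- knockouts (log2 difference 1.57, SE 0.23, adjusted p 6.1e-09). The Cndp2 region had 61.3 and 56.1 (1.56, SE 0.26, adjusted p 4.9e-07), near its 48 h values of 66.2 and 74.8. The region near Pparg had 13.9 and 9.24 in controls and 38.3 and 55 in TIM4- knockouts (1.52, SE 0.29, adjusted p 9.2e-06), beside 16.1 to 51.3 in its 24 h and 48 h libraries. Vsir had 123.1 and 82.8 (1.48, SE 0.21, adjusted p 6.4e-10). Iscu, the scaffold for iron-sulfur cluster assembly, lay 5438 bp from a region with 63.6 and 28.4 in controls and 139.0 and 171.6 in TIM4- knockouts (1.43, SE 0.18, adjusted p 2e-12). In all 5 both TIM4- libraries were above both controls, and no alternative run lost these 5 calls. In TIM4+ knockouts the call at Pparg (1.23, adjusted p 0.0026) was lost without the second control library (1.12, adjusted p 0.079), as was that at Susd1 (0.72, adjusted p 0.23). Both were also lost without centring (0.92, adjusted p 0.16, and 0.86, adjusted p 0.20).

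Among tested regions, the direction of the Nr1h3 differences went with the order of Kupffer and 24 h signal. Both Kupffer values were above all 3 of the 24 h values in 809 early regions (46.8%, against 17.7% of all regions called in these 5 libraries), below them in 164 (9.5%, against 40.2%) and overlapping in 754 (43.7%, against 42.1%). In TIM4+ knockouts, regions with Kupffer above 24 h had 32 higher and 68 lower of 689 (background 1.84 and 9.41% of all regions of that order). Those with Kupffer below 24 h had 15 higher and 0 lower of 96 (background 8.52 and 0.505%), and the overlapping ones 34 and 9 of 508 (background 3.6 and 2.08%). In TIM4- knockouts the counts were 50 higher and 122 lower of 747 (background 3.84 and 12.6%), 19 and 1 of 110 (background 12.2 and 0.795%) and 60 and 32 of 581 (background 7.0 and 3.23%). All tested regions, in the backgrounds given, show the same order of directions. Without centring, the TIM4- comparison turned in the first class, to 149 higher and 52 lower, and the TIM4+ comparison kept 1 higher and 58 lower. Without the first or second control library the TIM4+ counts of 32, 68 and 15 became 19, 35 and 7 or 13, 28 and 4, and without the first knockout library the 15 became 4. Without the second control library the TIM4- counts of 50 and 122 became 19 and 77. The 50 became 33 without the first control and 24 without the second TIM4- library.

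**Figure D4:**
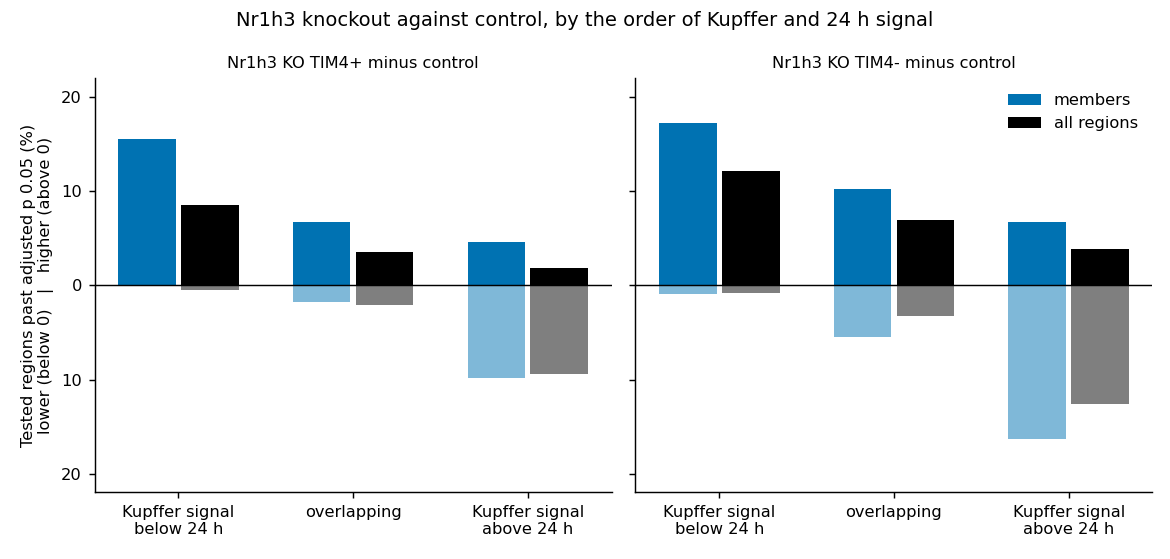
Percent of tested regions higher (above 0) or lower (below 0) in Nr1h3 knockouts than in controls, by limma, split by the order of Kupffer and 24 h signal, for early regions and all regions. In both panels bars above 0 are tallest where Kupffer signal is below 24 h (15.6 and 17.3% of early regions) and bars below 0 are longest where it is above (9.87 and 16.3%).

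Between the 2 knockout groups few early regions differed. Of 1318 tested, 2 (0.152%) were higher and 26 (1.97%) lower in TIM4- than in TIM4+ knockouts by limma, against 0.607 and 1.5% of all 41838 regions. Without centring, which shifts the median of all regions by 0.72, 872 were higher and 5 lower. A region 47521 bp from Dnajc5b had 13.4 and 21.8 in TIM4+ and 8.84 and 6.54 in TIM4- knockouts (log2 difference -1.82, SE 0.33, adjusted p 2.2e-05). The Dlc1 region had 61.9 and 65.5 against 35.3 and 39.2 (-1.51, SE 0.22, adjusted p 5.1e-08) and Arl15 39.6 and 76.4 against 37.7 and 34.9 (-1.34, SE 0.23, adjusted p 6.2e-06). The values were lower in the TIM4- libraries before centring as well, and these 3 calls held under every alternative run. Ank2, an ankyrin gene, had 32.6 and 38.2 against 21.8 and 24.0 (-1.35, SE 0.27, adjusted p 0.00024), and Dner, which encodes a Notch ligand-like protein, 69.6 and 91.5 against 56.6 and 57.7 (-1.22, SE 0.19, adjusted p 7.4e-07). The calls at Ank2 and Dner were lost without centring (-0.60, adjusted p 0.078, and -0.47, adjusted p 0.066). The 2 higher regions lay in Zfp277 (17.9 and 24.6 against 70.7 and 72.4) and 15864 bp from Ccnl1 (33.2 and 53.9 against 124.9 and 137.8). The Zfp277 call was lost without either TIM4- library (adjusted p 0.15 and 0.18). Without the second TIM4- library or the first TIM4+ library the Ccnl1 call was lost (adjusted p 0.14 and 0.079). The count of 26 lower became 11 without the second TIM4- library and 16 without the first or without the first TIM4+ library, and the count of 2 higher became 5 without the second TIM4+ library and 0 without the second TIM4- library.

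In the Smad4 experiment 31 of 1223 early regions (2.53%) were higher and 25 (2.04%) lower in the libraries titled knockout than in those titled control, by limma, where 1.57% of all 40067 regions were higher and 1.5% lower. The median log2 difference was 0.03, against 0.07 over all regions. Without centring, which shifts the median by -0.27, 0 were higher and 21 lower. Quantile normalisation left 12 higher and 16 lower. Each library left out lowered the count of higher regions: to 13 without titled knockout replicate 1 and 17 without titled knockout replicate 2, and to 11 without titled control replicate 1 and 7 without titled control replicate 2. Without titled control replicate 1 the lower count became 13 and without titled control replicate 2 it became 9. The titled knockouts had 15.41 and 19.6% of tags in peaks and the titled controls 19.53 and 25.23%. Monocyte marker end peaks numbered 7 and 9 of 23 against 11 and 12, and Clec4f had none in either titled knockout. The part of these values was not tested.

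Magi1, a junctional scaffold gene, held the region that fell most, at chr6:94283695-94284078, with 40.6 and 61.8 in titled controls and 6.7 and 10.5 in titled knockouts (log2 difference -2.11, SE 0.27, adjusted p 2.5e-08 in limma). Dlc1 had 103.0 and 146.0 against 19 and 40.3 (-1.77, SE 0.19, adjusted p 2.3e-11), and Stard13 64.2 and 65.6 against 16.7 and 26.0 (-1.26, SE 0.22, adjusted p 4e-05). Those 3 regions had no overlap between the groups, and none of their calls was lost under an alternative. Lingo2, a neuronal leucine-rich repeat gene, had 37.5 and 77.1 against 8.37 and 23.6 (-1.52, SE 0.26, adjusted p 3.1e-05), which was lost without titled control replicate 2 (-1.19, adjusted p 0.17). Tctn2, a ciliary protein gene, had 27.9 and 55.2 against 19 and 7.44 (-1.30, SE 0.30, adjusted p 0.0033), which was lost without titled knockout replicate 2 (-0.54, adjusted p 0.41) or without titled control replicate 2 (-1.0, adjusted p 0.36) or with quantile normalisation (-1.31, adjusted p 0.086). The Stard13 and Lingo2 regions were also lower in both Nr1h3 knockout groups, whose controls are other mice, and these calls held under every alternative. So was the Tctn2 region, in TIM4+ (-1.05, adjusted p 0.0071) and TIM4- knockouts (-1.21, adjusted p 0.00038). Both Tctn2 calls were lost when certain single libraries were left out. The Dlc1 region was lower there too, but in TIM4+ knockouts (-0.57, adjusted p 0.015) the call was lost without the first control (adjusted p 0.073), the second control (adjusted p 0.29) or the second knockout library (adjusted p 0.096), or without centring (adjusted p 0.058).

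Higher in the titled knockouts was the Itpkb region, with 12.1 and 15.9 in titled controls and 26.2 and 33.5 in titled knockouts (log2 difference 1.38, SE 0.28, adjusted p 0.00045 in limma). A region 28387 bp from Gspt1, a translation termination factor gene, had 30.9 and 38.3 against 56.9 and 71.9 (1.21, SE 0.20, adjusted p 8.2e-06). The calls at Itpkb and Gspt1 were lost without centring (1.04, adjusted p 0.17, and 0.88, adjusted p 0.22), as were those at Misp3, Vti1a and Usb1 (adjusted p 0.24, 0.35 and 0.37). Misp3 had 17.0 and 36.1 against 41.3 and 54.0 (1.24, SE 0.23, adjusted p 0.00015), lost without titled control replicate 1 (0.86, adjusted p 0.08). Vti1a, a SNARE gene of vesicle transport, had 20 and 29.5 against 41.9 and 44.0 (1.13, SE 0.23, adjusted p 0.00068), lost without titled knockout replicate 1 (0.99, adjusted p 0.053). A region 1501 bp from Usb1 had 13.3 and 18.0 against 28.5 and 27.3 (1.15, SE 0.28, adjusted p 0.0057). In all 5 the groups did not overlap. The Usb1 call was lost without titled knockout replicate 1 (0.94, adjusted p 0.19) or titled control replicate 1 (1.08, adjusted p 0.096) or 2 (1.17, adjusted p 0.1).

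DLL4 raised more early regions than it lowered in cultured macrophages. Of 1241 tested, 94 (7.57%) were higher and 14 (1.13%) lower than in untreated cultures by limma, against 2.36 and 1.52% of all 72015 regions. The median log2 difference was 0.12, against 0.03 over all regions. In regions first open at 48 h 34 of 757 were higher and 6 lower, and in those still closed at 48 h 12 of 555 and 4, and these sets were not tested against each other. Without centring 94 were higher and 6 lower, and with quantile normalisation 42 and 8. Leaving out 1 library made the count of higher regions 11 or 46 (first or second untreated library) and 33 or 26 (first or second DLL4 library). The count of lower regions became 0, 5, 3 and 6 in the same order. The first untreated library had 16.28 M tags and the second 11.42, against 13.76 and 14.62 with DLL4.

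Dennd1a, a Rab exchange factor gene, held the region that rose most, at chr2:37969898-37970469, with 9.21 and 10.5 in untreated and 50.1 and 36.9 in DLL4 cultures (log2 difference 1.99, SE 0.31, adjusted p 7.7e-07 in limma). Tnfrsf11a, which encodes the receptor RANK, held chr1:105795654-105796044, with 36.9 and 24.5 against 90.1 and 97.8 (1.58, SE 0.20, adjusted p 2e-09). A region 3957 bp from Tmem51 had 25.2 and 19.3 against 65.4 and 63.6 (1.47, SE 0.24, adjusted p 3.9e-06). In all 3 the groups did not overlap and no alternative run lost the call. The region in Tnfrsf11a had only 18.0 and 17.3 in Kupffer cells, below both DLL4 cultures, and the Dennd1a region had 25.6 and 34.5. Abcg1, a cholesterol transporter gene, had 12.9 and 12.3 against 32.7 and 41.0 (1.43, SE 0.30, adjusted p 0.00075), which was lost without the first untreated library (1.38, adjusted p 0.11) or the second DLL4 library (1.28, adjusted p 0.062).

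The lowered regions were weaker results. Kansl1 had 69.4 and 73.6 in untreated and 38.5 and 32.8 in DLL4 cultures (log2 difference -1.02, SE 0.21, adjusted p 0.00051 in limma), lost without the first (adjusted p 0.084) or the second untreated library (adjusted p 0.062). Maml2, a coactivator of the Notch complex, had 49.1 and 44.7 against 26.9 and 23.3 (-0.91, SE 0.25, adjusted p 0.018). Its call was lost whichever library was left out, with adjusted p-values from 0.05 to 0.22. Ppargc1b, a coactivator of nuclear receptors, had 188.0 and 175.2 against 113.4 and 129.3 (-0.61, SE 0.13, adjusted p 0.0015), lost without the first untreated (adjusted p 0.12) or the first DLL4 library (adjusted p 0.11). The regions at Ifitm10 and Ywhag fell by 0.68 and 0.65 on the log2 scale (adjusted p 0.024 and 0.021). In all 5 the DLL4 values were below both untreated values. The calls at Ifitm10 and Ywhag were lost without centring (adjusted p 0.057 and 0.051) and with quantile normalisation (adjusted p 0.065 and 0.055). The Ifitm10 call was lost without either untreated library or the second DLL4 library (adjusted p 0.32, 0.076 and 0.24). Without the first untreated or either DLL4 library the Ywhag call was lost (adjusted p 0.35, 0.17 and 0.058).

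Itga9 held 10 early regions, and DLL4 raised 4 of the 6 that could be tested, where 2.36% of all regions and 7.57% of all early regions rose. At chr9:118617320-118617571, inside the gene, untreated cultures had 22.1 and 12.3 and DLL4 cultures 50.9 and 52.0 (log2 difference 1.55, SE 0.27, adjusted p 2.3e-05 in limma). At chr9:118649547-118649810 they had 45.5 and 35.0 against 85.0 and 99.2 (1.15, SE 0.19, adjusted p 7.9e-06). Both calls held under every alternative run. The region 6587 bp before the gene, at chr9:118599793-118600122, had 19 and 14.9 against 32.7 and 42.4 (1.07, SE 0.29, adjusted p 0.015), and that at chr9:118654844-118655350 10.4 and 11.4 against 21.8 and 29.4 (1.11, SE 0.32, adjusted p 0.028). Leaving out any one library lost both of these calls, with adjusted p-values of 0.052 to 0.24 and of 0.065 to 0.29, and quantile normalisation lost the latter (adjusted p 0.066). The other 2 tested regions did not pass (0.54, adjusted p 0.42, and 0.61, adjusted p 0.12). In the liver the strongest of the 10, chr9:118666175-118666416, had 146.0, 138.0 and 69.2 at 24 h, 250.1 and 225.9 at 48 h and 161.1 and 168.7 in Kupffer cells. All 10 had peaks in both 48 h libraries. The region before the gene was among the weakest at 24 h, with 6.55, 9.99 and 11.4, and had 31.4 and 38.1 at 48 h. In the TIM4- Nr1h3 knockouts 1 of the 10, at chr9:118706165-118706663, was higher than in controls (80.1 and 56.6 against 30.1 and 26.4, log2 difference 0.83, SE 0.22, adjusted p 0.0044), a call lost without the first TIM4- library (0.61, adjusted p 0.21).

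**Figure D5:**
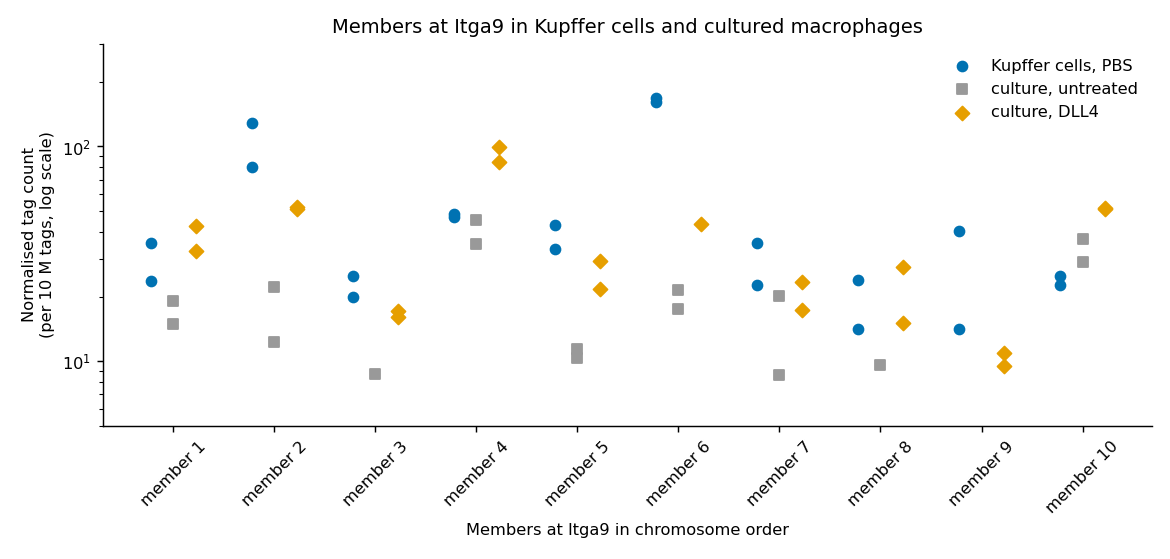
Normalised tag count per 10 M tags (log axis) of the 10 early regions at Itga9, in chromosome order, in Kupffer cells and in cultured macrophages with and without DLL4. Each point is 1 of 2 libraries and a missing point is a library with no called peak; in 5 of the 6 regions with all 4 culture values both DLL4 points lie above both untreated points, for example 50.9 and 52.0 against 22.1 and 12.3.

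Gene groups were described by the early regions within 50 kb of their genes, with medians set against those of all regions given above. Of 34 Kupffer identity genes, 9 had 22 early regions, which is 14.7% of the 150 Kupffer-gained regions at these genes and close to the 13.7% over all genes. In culture, DLL4 raised 7 of the 17 tested and lowered 0 (median 0.54, against 0.03 over all regions), where 2.36% of all regions and 7.57% of all early regions were higher. Of the 7, 4 lay at Itga9, and the others at Clec1b, Pcolce2 and Spic. The gene list was chosen with earlier results of these data known, so this count is not independent of them. Clec1b, which encodes the platelet receptor CLEC-2, had 59.6 and 34.2 in untreated and 98.1 and 95.8 in DLL4 cultures (1.05, SE 0.19, adjusted p 3.5e-05 in limma), a call that no alternative lost. Pcolce2 had 51.0 and 42.9 against 77.8 and 92.4 (0.81, SE 0.19, adjusted p 0.0034), lost without the first untreated (0.85, adjusted p 0.13) or second DLL4 library (0.70, adjusted p 0.13). Spic encodes a PU.1-related factor of heme-handling macrophages, and its region at chr10:88681016-88681318 had 8.6 and 7.88 against 21.1 and 19.2 (1.16, SE 0.34, adjusted p 0.03). That call was lost whichever library was left out (adjusted p 0.11 to 0.23) and with quantile normalisation (adjusted p 0.055). In TIM4+ Nr1h3 knockouts 1 of 19 was higher and 0 lower (median 0.21, against 0.08 over all regions), where 4.86% of all regions were higher and 3.91% lower. In TIM4- knockouts 2 of 21 were higher and 1, at Spic, lower (median 0.15, against 0.08), where 7.03% of all regions were higher and 6.68% lower. In the titled Smad4 knockouts 0 of 21 passed the test in limma.

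Spic was the only one of the 10 Kupffer marker genes with an early region, against 47 Kupffer-gained regions at those genes. Its signal was 112.3, 144.4 and 70.2 at 24 h, 179.5 and 205.4 at 48 h, and 113.7 and 117.0 in Kupffer cells. The 24 h and Kupffer values overlapped and both 48 h values were the highest. In the Nr1h3 experiment it had 138.8 and 97.0 in controls, 60.6 and 79.2 in TIM4+ knockouts (log2 difference -0.43, SE 0.17, adjusted p 0.086 in limma) and 91.9 and 89.3 in TIM4- knockouts (-0.76, SE 0.17, adjusted p 0.0002). Without centring the TIM4- difference was -0.35 with an adjusted p of 0.25. The titled Smad4 libraries did not pass the test (78.7 and 97.9 against 87.1 and 98.0, 0.41, adjusted p 0.14).

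LXR target genes had a larger share of early regions among their Kupffer-gained ones: 18 at 10 of 30 genes, or 32.7% of 55, and the share was not tested against other genes. In TIM4+ Nr1h3 knockouts 0 of 17 were higher and 3 lower (median 0.23, against 0.08 over all regions), so 14 of the 17 did not pass the test. In TIM4- knockouts 0 of 16 were higher and 2 lower (median -0.03, against 0.08). Of all regions, 4.86% were higher and 3.91% lower in TIM4+ knockouts, and 7.03% higher and 6.68% lower in TIM4- knockouts. Beside Abca1, Rxra, the partner receptor of LXR, had 126.1 and 106.3 in controls, 97.0 and 124.9 in TIM4+ and 190.9 and 204.3 in TIM4- knockouts, and passed in neither comparison (0.23, adjusted p 0.39, and 0.36, adjusted p 0.093). In repopulation the Rxra region had 23.4, 25.4 and 18.0 at 24 h and 92.4 and 71.1 at 48 h, with no overlap. Tgm2, a transglutaminase gene, had 159.6 and 180.9 in controls, 143.0 and 191.8 in TIM4+ and 259.8 and 281.1 in TIM4- knockouts (0.27, adjusted p 0.25, and 0.26, adjusted p 0.23). Mylip, whose product degrades the LDL receptor, had 71.1 and 72.6, 58.1 and 82.6, and 96.0 and 97.0 (0.26, adjusted p 0.42, and 0.02, adjusted p 0.96). These regions overlapped between TIM4+ knockouts and controls.

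The Notch list had 4 early regions at 4 of 26 genes. In TIM4+ knockouts 1 of 2 tested was lower (3.91% of all regions) and in TIM4- knockouts 1 of 4 (6.68% of all regions), with 0 higher in either. That region lay 9855 bp from Lfng, a glycosyltransferase of Notch receptors, with 103.5 and 68.7 in controls, 35.7 and 48.5 in TIM4+ (log2 difference -0.70, SE 0.19, adjusted p 0.0083 in limma) and 58.3 and 53.4 in TIM4- knockouts (-0.99, SE 0.19, adjusted p 9.9e-06). The TIM4+ call was lost without the first control (-0.55, adjusted p 0.27) or the first knockout library (-0.62, adjusted p 0.061), and the TIM4- call without centring (-0.59, adjusted p 0.066). In culture 0 of 3 rose with DLL4 (2.36% of all regions) and 1, at Maml2, fell (1.52% of all regions). Notch2, a receptor, had 35.6 and 33.3 in untreated and 34.2 and 41.7 in DLL4 cultures (0.10, adjusted p 0.89), and Maml3 26.4 and 19.3 against 18.2 and 8.89 (-0.81, adjusted p 0.15). The TGF-beta and BMP list had 4 early regions at 4 of 30 genes, and 0 of 4 moved in the titled Smad4 knockouts. Tgfbr2, the type 2 receptor of TGF-beta, had 25.4 and 27.3 in titled controls and 15.1 and 29.8 in titled knockouts (0.04, adjusted p 0.97), and Smad1 18.8 and 38.3 against 22.3 and 41.6 (0.51, adjusted p 0.32). Skil (0.20, adjusted p 0.54) and Acvrl1 (0.45, adjusted p 0.39), a BMP receptor gene, did not pass there. The Acvrl1 region passed in TIM4- Nr1h3 knockouts (46.3 and 29.0 against 76.6 and 85.5, 0.72, SE 0.20, adjusted p 0.007), a call lost without the second control (0.55, adjusted p 0.17) or second knockout library (0.65, adjusted p 0.1).

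Macrophage transcription factors had 14 early regions at 9 of 34 genes, or 31.1% of their 45 Kupffer-gained regions. In TIM4+ Nr1h3 knockouts 2 of 13 were higher and 0 lower, and in TIM4- knockouts 3 of 14 were higher and 1, at Spic, lower. The medians were 0.21 and 0.19, against 0.08 over all regions in both comparisons, where 4.86 and 7.03% of all regions were higher and 3.91 and 6.68% lower. Zeb2, a zinc-finger factor needed for macrophage identity, had the strongest, 26933 bp from the gene at chr2:44956297-44956579, with 141.7 and 114.9 in controls, 150.6 and 185.0 in TIM4+ (log2 difference 0.69, SE 0.15, adjusted p 0.00019 in limma) and 251.6 and 264.7 in TIM4- knockouts (0.61, SE 0.15, adjusted p 0.001). The TIM4+ call was lost without centring (0.38, adjusted p 0.59). Of the lysosome list, 10 regions at 8 of 30 genes were early, with 1 of 7 higher in TIM4+ and 2 of 9 higher and 1 lower in TIM4- knockouts (medians 0.38 and -0.03, against the same 0.08). Ctsh, which encodes cathepsin H, had 59.6 and 40.9 in controls and 136.1 and 132.9 in TIM4- knockouts (1.03, SE 0.18, adjusted p 8.1e-07). The Tfeb region, at the gene of a lysosomal master regulator, had 109.9 and 70.6 against 175.0 and 164.0 (0.53, SE 0.16, adjusted p 0.011), a call lost without the second control (0.37, adjusted p 0.33) or the first TIM4- library (0.52, adjusted p 0.087), with quantile normalisation (0.38, adjusted p 0.11) or with cyclic loess (0.36, adjusted p 0.12).

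The remaining lists held few early regions. Phagocytosis genes had 12 at 9 of 30, with 0 of 10 and 0 of 12 passing in the Nr1h3 comparisons. In the titled Smad4 knockouts 1 of 8 was higher (1.57% of all regions), and with DLL4 1 of 8 was higher (2.36% of all regions). The latter lay in Dock2, a Rac activator gene (69.4 and 52.5 against 85.8 and 98.5, 0.56, SE 0.18, adjusted p 0.044 in limma), and was lost whichever library was left out (adjusted p 0.12 to 0.31), with quantile normalisation (adjusted p 0.11), with cyclic loess (adjusted p 0.062) and with a replicate block (adjusted p 0.052). Iron and heme genes had 4 at 4 of 24, AP-1 and stress genes 4 at 3 of 27, and complement genes 2 at 2 of 23. At Hmox2, a heme oxygenase gene, TIM4- knockouts had 17.1 and 18.0 against 26.6 and 21.1 in controls (-0.82, SE 0.30, adjusted p 0.048), which was also lost with any library left out (adjusted p 0.11 to 0.2). It was lost as well without centring, with quantile normalisation, with cyclic loess and in a fit over all Nr1h3 libraries (adjusted p 0.3, 0.11, 0.083 and 0.06). The Maff promoter region shown above had 148.6 and 117.5 in controls, 132.1 and 174.7 in TIM4+ (0.51, SE 0.15, adjusted p 0.013) and 263.9 and 267.5 in TIM4- knockouts (0.60, SE 0.15, adjusted p 0.0012). Without the second control library the latter became 0.59 with an adjusted p of 0.056, and the TIM4+ call was lost without either control library or the second knockout library (adjusted p 0.11, 0.13 and 0.075), without centring (0.20, adjusted p 0.84), with quantile normalisation (adjusted p 0.096) and with cyclic loess (adjusted p 0.094). Inflammatory and NF-kB genes had 7 at 4 of 32, cholesterol synthesis genes 2 at 2 of 20 and antioxidant genes 3 at 3 of 20. Of these 3 lists, the one call was an inflammatory region, 1 of 6, lower in TIM4+ knockouts (3.91% of all regions). Markers of other cell types had 3 (monocyte, all at 1 gene), 2 (liver endothelial), 2 (T and NK cell), 2 (dendritic cell), 1 (hepatocyte), 1 (stellate), 1 (neutrophil) and 0 (B cell). Of these, the hepatocyte region was higher in both Nr1h3 knockout groups, and 1 of 2 T and NK cell regions was higher in TIM4- knockouts. The stellate region and 2 of 2 dendritic cell regions were higher with DLL4. Of all regions, 4.86% were higher in TIM4+ knockouts, 7.03% in TIM4- knockouts and 2.36% with DLL4. Lists with 1 or 2 regions are too short to set against these shares.

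The promoter region of Gm39430 moved in 4 of the 5 comparisons. It lies 86930 bp from Arpp21, its nearest protein-coding gene, so it was named as a promoter region and not among the largest changes, which were taken from regions within 50 kb of a gene. It had 121.5 and 108.3 in Nr1h3 controls, 52.3 and 84.6 in TIM4+ knockouts (log2 difference -0.47, SE 0.17, adjusted p 0.057 in limma) and 48.9 and 29.4 in TIM4- knockouts (-1.97, SE 0.19, adjusted p 5.6e-20). TIM4- against TIM4+ knockouts differed by -1.54 (SE 0.22, adjusted p 2.1e-08). The titled Smad4 controls had 50.3 and 53.6 and the titled knockouts 12.3 and 19.2 (-1.36, SE 0.24, adjusted p 7.5e-05). Those calls held under every alternative, and the groups did not overlap in any of the 3. With DLL4 it rose from 35.6 and 28.0 to 58.9 and 74.6 (1.01, SE 0.22, adjusted p 0.0013), a call lost without the first untreated (1.09, adjusted p 0.094) or second DLL4 library (0.85, adjusted p 0.11). The region at Gm31613 had 130.7 and 119.5 in Nr1h3 controls and 105.5 and 99.7 in TIM4- knockouts (-0.68, SE 0.16, adjusted p 0.0007), lost without the second control library (-0.59, adjusted p 0.066) or without centring (-0.28, adjusted p 0.37). In TIM4+ knockouts it had 60.6 and 82.6 (-0.51, SE 0.17, adjusted p 0.032), lost without either control library (adjusted p 0.12 and 0.36), the first knockout library (adjusted p 0.18) or centring (adjusted p 0.092). The regions at Ctla2b, 1700003F12Rik, Gm30926 and Fam13a passed in none of the comparisons.

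Some early regions lay within 1 kb of a miRNA hairpin, and 2 of these were chosen after their values were seen. The mature sequences (RefSeq, GRCm38.p6, seed at bases 2 to 8 in capitals) show which miRNAs they adjoin.
mmu-miR-155-5p: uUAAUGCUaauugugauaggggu
mmu-miR-146b-5p: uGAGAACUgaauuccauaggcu

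miR-155, an inflammatory miRNA of myeloid cells, lay 606 bp from chr16:84713153-84713534, which had 20.6, 20 and 19 at 24 h, 44.4 and 41.1 at 48 h and 9.48 and 10.5 in Kupffer cells. The 3 groups did not overlap and the order was Kupffer, 24 h, 48 h. Elsewhere it was weak or not called, with at most 14.2 in any other library. miR-146b, which restrains NF-kB signalling, lay 833 bp from chr19:46343703-46344138, which had 19.7, 15.4 and 17.1 at 24 h, 25.3 and 22.7 at 48 h and 18.0 and 23 in Kupffer cells. That region had values in all 12 of the other liver libraries and no peak in culture, and it passed none of the 4 liver tests in limma.

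Complete loss of calls in one group was less frequent among early regions than among all regions in all 10 directions given here, a difference that was not tested and that was very small for DLL4. Early regions had to be called in 5 liver libraries and the background regions did not, so fewer losses are favoured by the rule itself. Of the regions called in both Nr1h3 controls, 74 had no peak in either TIM4+ knockout (4.91%, background 10.9%) and 22 none in either TIM4- knockout (1.46%, background 5.63%). In the other direction, 9 (0.672%, background 1.81%) and 29 (1.88%, background 9.39%) were called in both knockouts and in no control. Between the knockouts, 80 were only in TIM4- (5.19%, background 14.4%) and 4 only in TIM4+ (0.299%, background 1.02%). In the Smad4 experiment 67 were only in titled controls (4.63%, background 10.4%) and 7 only in titled knockouts (0.543%, background 2.24%). In culture 41 were only in DLL4 (2.99%, background 3.02%) and 14 only in untreated cultures (1.08%, background 2.98%). Lists of equal length changed several counts: the 74 became 28, the 29 became 17, the 80 became 22 and the 4 became 12. The 67 only in titled Smad4 controls and the 7 only in titled knockouts became 30 and 26, so their imbalance rests on the length of the lists. Leaving out 1 library loosens these counts: the 74 became 93 to 172 (highest without the second TIM4+ knockout), the 22 became 31 to 48 (highest without the first TIM4- knockout), the 9 became 14 to 37, the 29 became 38 to 87 (the last 2 highest without the first control) and the 80 became 105 to 181 (highest without the second TIM4+ knockout). In the Smad4 experiment the 67 became 89 to 186 and the 7 became 11 to 47 (highest without titled knockout replicate 2 and titled control replicate 2), and in culture the 41 became 56 to 116 and the 14 became 25 to 37 (highest without the first untreated and the first DLL4 library). The 4 became 6 to 16, highest without the second TIM4- knockout. Examples were chosen after their values were seen. Efcab11 held a region at chr12:99739036-99739333 with 44.5 and 39.0 in controls and no peak in any of the 4 Nr1h3 knockout libraries, and Kupffer values of 57.8 and 90.1. C5ar1, the receptor of complement C5a, had a promoter region with 71.3 and 95.3 in TIM4- knockouts, no peak in controls and 53.9 in 1 of the TIM4+ knockouts. Its Kupffer values were 48.3 and 60.4, and all 4 Smad4 libraries had a peak there (36.9 and 38.8 titled control, 35.2 and 34.7 titled knockout).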

How the data were processed

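The authors deposited 1 HOMER peak list for each of 23 ATAC-seq libraries in 11 groups, and its signal is a normalised tag count per 10 M tags, per the file headers. The headers give factor-style calling without input at a 0.001 false discovery rate, 200 bp peaks at least 200 bp apart, and a 4-fold excess over the surrounding 10 kb at a Poisson p of 0.0001. Bowtie2, HOMER and mm10 are named per the submitters' processing notes; versions are not given in the sources used here. Because only called peaks are listed, a missing value is not a zero.

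Of 1605886 deposited peaks, the 1604681 on autosomes and X were merged where they overlapped by 1 bp, and a region's signal in a library is its strongest peak. Signal was tested with limma 3.58.1 (R 4.3.3) with a mean-variance trend, two-sided, on log2(signal + 1) centred on each library's median, over all regions with a peak in each library of both groups, with Benjamini-Hochberg adjustment at 0.05. The method was tested on simulated data. Tables and figures used Python 3.11.15 with pandas 2.3.3, numpy 2.4.6 and matplotlib 3.10.9. Genes are the nearest protein-coding RefSeq gene body within 50 kb. Regions "first open at 48 h" (1757) had no 24 h peak and both 48 h peaks, and those "still closed at 48 h" (4025) had neither.

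The regions and the 22 gene lists were chosen with earlier results of these data known. Regions were named by rule: up to 5 per direction and comparison with the largest called fold change and a gene within 50 kb, the 10 strongest, the 10 genes with most regions, members of 10 lists (up to 5 each, by Kupffer signal) and 6 promoter regions. Others are said to be chosen after their values were seen. A region among the strongest is not reported here. Alternatives were other normalisations, signal minimums, pseudocount 5, region definitions, a replicate block and leaving out each library. Signal depends on tags in peaks as well as depth (10.43 to 18.36 M tags).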

Additional observations from a re-analysis of the deposited data

How the results depend on the processing

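Of the 137 named calls tested under each normalisation, none reversed, and 45 were lost without centring, 31 with quantile normalisation, 16 with cyclic loess and 0 with a pseudocount of 5. The number of early regions was 1884 to 3016 when 1 library was left out of the rule. With lists of equal length the shares called in both libraries were 91.9% at 48 h, 86.1% and 89.4% in TIM4+ and TIM4- Nr1h3 knockouts, 82.6% in titled Smad4 knockouts, and 61.6% and 65.4% in untreated and DLL4 cultures. With a signal of at least 16 they were 83.8% in Nr1h3 controls, 89.4% in TIM4- knockouts, 73.6% and 61.8% in titled Smad4 controls and knockouts, and 70.8% and 74.8% in the cultures. With no blood peak within 1 kb they were 88.7% in TIM4- knockouts and 82.4% and 86.3% in the cultures. Leaving out each library in turn gave 96.6 to 98.4% (48 h), 89.2 to 92.6% (Nr1h3 controls), 80.8 to 85.1% (TIM4+ knockouts), 92.3 to 92.4% (TIM4- knockouts), 87.2 to 90.6% and 77.8 to 85.8% (titled Smad4 controls and knockouts), 77.2 to 82.7% (untreated cultures) and 83.3 to 83.4% (DLL4). Some of these rises follow from the construction, since 1 library in place of 2 has to call a region.

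Without centring, 2 regions were higher in TIM4+ knockouts, 391 higher and 59 lower in TIM4- knockouts, 872 higher and 5 lower in TIM4- against TIM4+, 0 higher in titled Smad4 knockouts, and 6 lower with DLL4. Quantile normalisation gave 84 higher in TIM4- knockouts, 15 lower in TIM4- against TIM4+, 12 higher and 16 lower for Smad4, and 42 higher and 8 lower with DLL4. Cyclic loess gave 81 higher in TIM4- knockouts, and a mean signal of at least 16 gave 20 higher for Smad4. The cause was not tested. Leaving out 1 library gave 30 to 72 higher and 31 to 82 lower in TIM4+ knockouts, 67 to 93 and 93 to 127 in TIM4- knockouts, 0 to 5 and 11 to 27 between the knockouts, 7 to 17 and 9 to 27 for Smad4, and 11 to 46 and 0 to 6 with DLL4. A lone library is then assumed to vary like the other group.

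For regions called in 1 group only, lists of equal length gave 28 in controls and not TIM4+ knockouts, 17 in TIM4- knockouts and not controls, 22 in TIM4- and not TIM4+ knockouts, 12 the other way (1 with a signal of at least 16), and 26 and 30 in titled Smad4 knockouts only and controls only. Leaving out 1 library gave 14 to 37 in TIM4+ knockouts and 93 to 172 in controls only, 38 to 87 in TIM4- knockouts and 31 to 48 in controls only, 105 to 181 in TIM4- and 6 to 16 in TIM4+ knockouts only, 11 to 47 and 89 to 186 in titled Smad4 knockouts and controls only, and 56 to 116 and 25 to 37 in DLL4 and untreated cultures only.

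Same-numbered libraries were not paired: their deviations correlated at 0.009, -0.004, 0.061 and -0.038. With a replicate block the counts higher and lower were 96 and 86 in TIM4+ knockouts, 132 and 156 in TIM4- knockouts, 3 and 29 between the knockouts, and 90 and 12 with DLL4. A count-model fit had been planned and was not run, although signal times total tags came out whole within rounding.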
